A study of Mus musculus with 35 samples.

Results

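The CC chemokines described here are 10 small secreted proteins encoded by *Ccl2*, *Ccl3*, *Ccl4*, *Ccl5*, *Ccl6*, *Ccl7*, *Ccl8*, *Ccl9*, *Ccl12* and *Ccl24*, chosen by these symbols out of 54735 gene symbols in the count tables, in which all 10 were found. They were measured by bulk RNA-seq in 35 samples of macs sorted from livers of male C57Bl/6J mice that had received their diet from 5 weeks of age. The standard diet (SD) was compared with a Western diet (WD) rich in fat and cholesterol, combined with sucrose and fructose in the water. Before a sample number, as in (SD, n = 6), SD means the standard deviation, and ± after a log2 fold change gives its standard error (SE). Resident Kupffer cells (ResKCs, CLEC4F+TIM4+) came from SD-fed mice at 12 weeks (7 samples) and 24 weeks (6 samples) and from WD-fed mice at 12 weeks (5 samples) and 24 weeks (6 samples). Monocyte-derived KCs (moKCs, CLEC4F+TIM4-, 5 samples) and CLEC4F- macs (6 samples) came from WD-fed mice at 24 weeks only, so that neither population has an SD control. All populations were released by collagenase digestion and sorted. For the 5 WD ResKC samples at 12 weeks, titles and descriptions give the Western diet, and these were followed, although a separate diet entry gives the standard one. The study counts its replicates as mice, but the labels tie no sample to a mouse, so p-values measure the spread between samples, and in bulk samples fewer cells of a type and less RNA per cell cannot be told apart.

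CC chemokines form gradients that draw leukocytes out of the blood and position them in tissue, and each binds one or more G protein-coupled receptors of the CCR family. CCL2, CCL7 and CCL12 are ligands of CCR2, which brings monocytes to inflamed liver, and mouse CCL8 acts on CCR8. CCL3, CCL4 and CCL5 are inflammatory chemokines of T cells and myeloid cells, and CCL3 and CCL5 act on CCR1. CCL6 and CCL9 are rodent chemokines of myeloid cells that act on CCR1, and CCL24 (eotaxin-2) draws eosinophils through CCR3. In macs the genes of the CCL2 and CCL3 kind can be switched on quickly by a stimulus, together with immediate-early transcription factors such as FOS and EGR1.

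Of the 10 genes, 9 lie on mouse chromosome 11 (mm10, GENCODE M21). *Ccl2* (82035571 to 82037453), *Ccl7* (82045712 to 82047525), *Ccl12* (82101845 to 82103400) and *Ccl8* (82115185 to 82116799) form one stretch on the plus strand. *Ccl5* (83525778 to 83530518), *Ccl9* (83572919 to 83578636), *Ccl6* (83587882 to 83593087) and *Ccl3* (83647844 to 83649355) follow on the minus strand, next to *Ccl4* (83662584 to 83664683) on the plus strand. *Ccl24* lies apart on chromosome 5 (135569937 to 135573049, minus strand). Values cover all exons of a gene. Annotated antisense partners of *Ccl2* and *Ccl6* held 0 and 48 counts over all samples. RefSeq promoter sequence (GRCm38.p6) was at hand for *Ccl3*, *Ccl6*, *Ccl8*, *Ccl9* and *Ccl12*. The 250 bases before the start are shown for *Ccl9* and *Ccl6*, neighbours of unlike pattern, and for *Ccl3*, which moved with the immediate-early genes. The *Ccl3* window begins at 83649379 and leaves a gap to the GENCODE gene, which ends at 83649355. Its positions below count back from the window and not from the GENCODE gene. Capitals mark every match on either strand to AP-1 (TGANTCA), PU.1 (GAGGAA), C/EBP (TTNNGNAA) and the kappa B motif.
*Ccl9*, chr11:83578637-83578886, minus strand: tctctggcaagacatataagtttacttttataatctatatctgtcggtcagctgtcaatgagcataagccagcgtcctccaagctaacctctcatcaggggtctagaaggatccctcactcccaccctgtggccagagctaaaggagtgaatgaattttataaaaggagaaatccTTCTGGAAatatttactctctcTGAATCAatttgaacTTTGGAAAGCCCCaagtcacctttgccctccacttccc
*Ccl6*, chr11:83593088-83593337, minus strand: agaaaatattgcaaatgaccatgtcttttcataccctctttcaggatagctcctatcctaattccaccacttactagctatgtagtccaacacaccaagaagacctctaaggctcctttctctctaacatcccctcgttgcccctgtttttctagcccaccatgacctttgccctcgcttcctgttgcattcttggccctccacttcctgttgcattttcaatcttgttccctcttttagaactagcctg
*Ccl3*, chr11:83649379-83649628, minus strand: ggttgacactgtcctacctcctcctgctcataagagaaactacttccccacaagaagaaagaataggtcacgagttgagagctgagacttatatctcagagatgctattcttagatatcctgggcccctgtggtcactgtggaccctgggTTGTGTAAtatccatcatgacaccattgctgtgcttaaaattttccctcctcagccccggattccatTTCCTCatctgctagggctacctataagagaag
Counted back from the start, with the last base before it at -1, the *Ccl9* window held a C/EBP match at -75, an AP-1 match at -53, another C/EBP match at -38 and a kappa B match at -35, the last pair overlapping. The *Ccl3* window held a C/EBP match at -100 and a PU.1 match at -33. None of the 4 patterns was in the *Ccl6* window, and *Ccl8* and *Ccl12* held 1 PU.1 match each. Among 32851 promoter windows of this length, 6.75% held an AP-1, 23.3% a PU.1, 36.8% a C/EBP and 3.9% a kappa B match. A match describes letters and not a bound site.

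Total counts lay between 11568590 and 15163845 per sample, at which 3 counts equal 0.198 to 0.259 CPM (read counts scaled to a common library size with TMM factors), a floor for counting error only. *Clec4f* lay between 7317 and 17476 CPM in KC samples and between 293 and 1537 CPM in 5 CLEC4F- mac samples, but reached 5482 CPM in CLEC4F- mac replicate 4. This sample was the lowest of its group for *Ccl9*, *Ccl3*, *Ccl4* and *Ccl7* and the highest for *Ccl24*, *Ccl8*, *Ccl12* and *Ccl5*. *Ccl5* was 19.6 CPM in it and 3.14 to 6.52 CPM in WD ResKCs at 24 weeks. Without this sample the same number of members was called in both comparisons with CLEC4F- macs (7 for ResKCs and 3 for moKCs). *Timd4* lay between 547 and 1357 CPM in ResKCs, and did not exceed 30.3 CPM in any moKC or 14.6 CPM in any CLEC4F- mac sample. Alignments are named in 2 ways in the file headers, here called naming schemes (22 and 13 samples); all SD ResKCs at 24 weeks and all WD ResKCs at 12 weeks carry the first, and what the schemes stand for is not given in the sources used here.

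Per kilobase of exon, *Ccl6* was the most abundant member in all 6 groups. Averaged over all samples it reached 737 CPM per kb, or 52.3% of the sum of the 10 members, followed by *Ccl4* (193 CPM per kb), *Ccl24* (180.5 CPM per kb) and *Ccl3* (141 CPM per kb). *Ccl5* and *Ccl8* were the lowest, each at 6.76 CPM per kb. In CPM not divided by length, the summed level of the 10 genes differed little between groups. It ran from 1975 ± 207 CPM (SD, n = 7) in SD ResKCs at 12 weeks to 2211 ± 357 CPM (SD, n = 6) in CLEC4F- macs. Much of this sum was *Ccl6*, at means of 1309 CPM and 1096 CPM in these groups, so it says little about the other members. Between the lowest and the highest group mean, *Ccl6* differed 1.32-fold and *Ccl9* 33.9-fold.

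**Figure D1:**
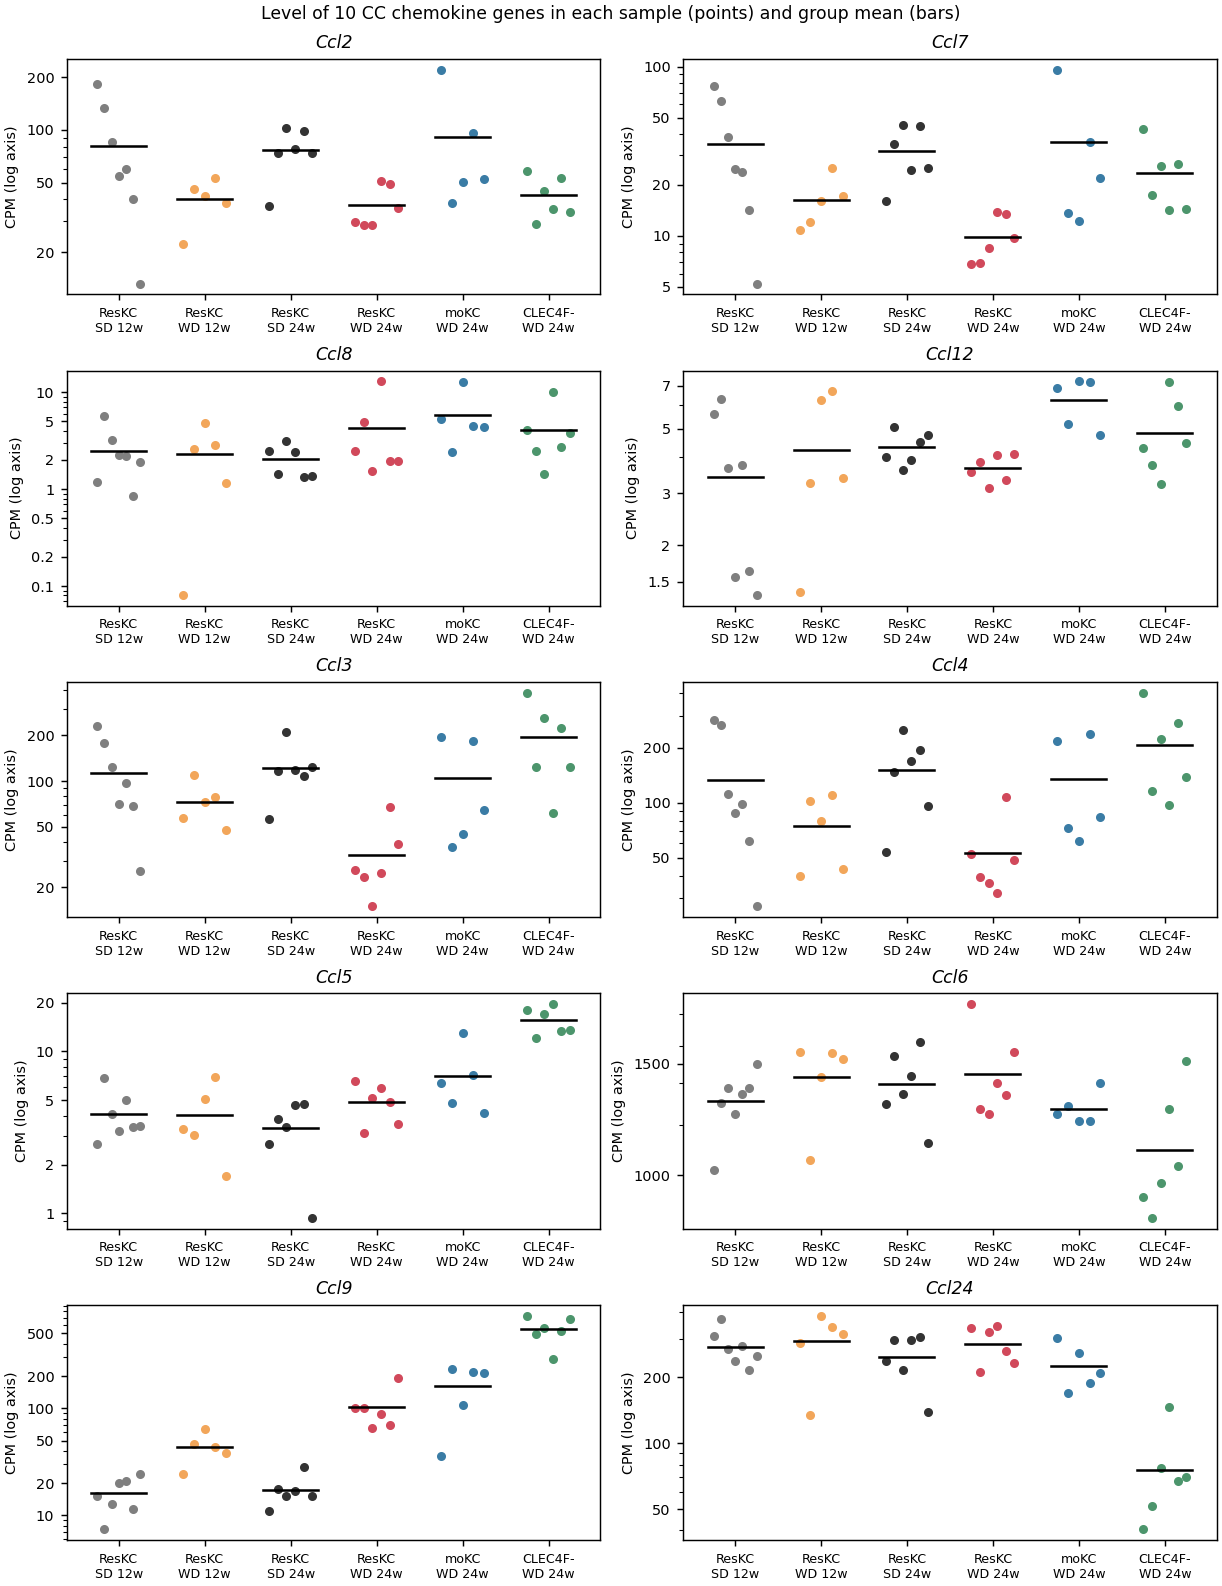
Levels of the 10 CC chemokine genes in CPM (log axis) in each of the 35 samples (points, ordered by replicate number) of 6 groups, with group means (bars). *Ccl9* climbed from 7.44 CPM in the lowest SD ResKC sample to 734 CPM in the highest CLEC4F- mac sample, and *Ccl24* was lowest in CLEC4F- macs, at 40.5 to 146 CPM.

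With edgeR's quasi-likelihood test and Benjamini-Hochberg adjustment over 13421 genes (called at an adjusted p under 0.05), 1 of 10 members was higher and 3 were lower in WD than in SD ResKCs at 24 weeks, against 4.84% and 3.87% of all genes. At 12 weeks 0 of 10 members were called by edgeR, where 0.0373% of all genes were. DESeq2 called 1 member and limma-voom 0. An unadjusted edgeR p under 0.05 was held by 3 members and by 1172 of all 13421 genes. For the difference between the diet effects at 24 and 12 weeks, 0 of 10 members were called by edgeR, DESeq2 or limma-voom (0.283% of all genes by edgeR). Here 1 member and 1886 of 13421 genes had an unadjusted edgeR p under 0.05. ResKCs exceeded CLEC4F- macs on the WD at 24 weeks for 2 members and fell below them for 5, beside 17.0% and 16.1% of all genes. For moKCs against CLEC4F- macs the counts were 1 higher and 2 lower, beside 9.34% and 7.09%. ResKCs had 0 members higher and 2 lower than moKCs, beside 2.00% and 0.991%. In that comparison 5 members and 2135 of 13421 genes had an unadjusted edgeR p under 0.05. Between SD ResKCs at 24 and 12 weeks, 0 of 10 members were called by any of the 3 tools, and 0% of all genes were called by edgeR. No member and 1208 of 13421 genes had an unadjusted edgeR p under 0.05. The comparisons share groups, so their values for a member are not independent.

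**Figure D2:**
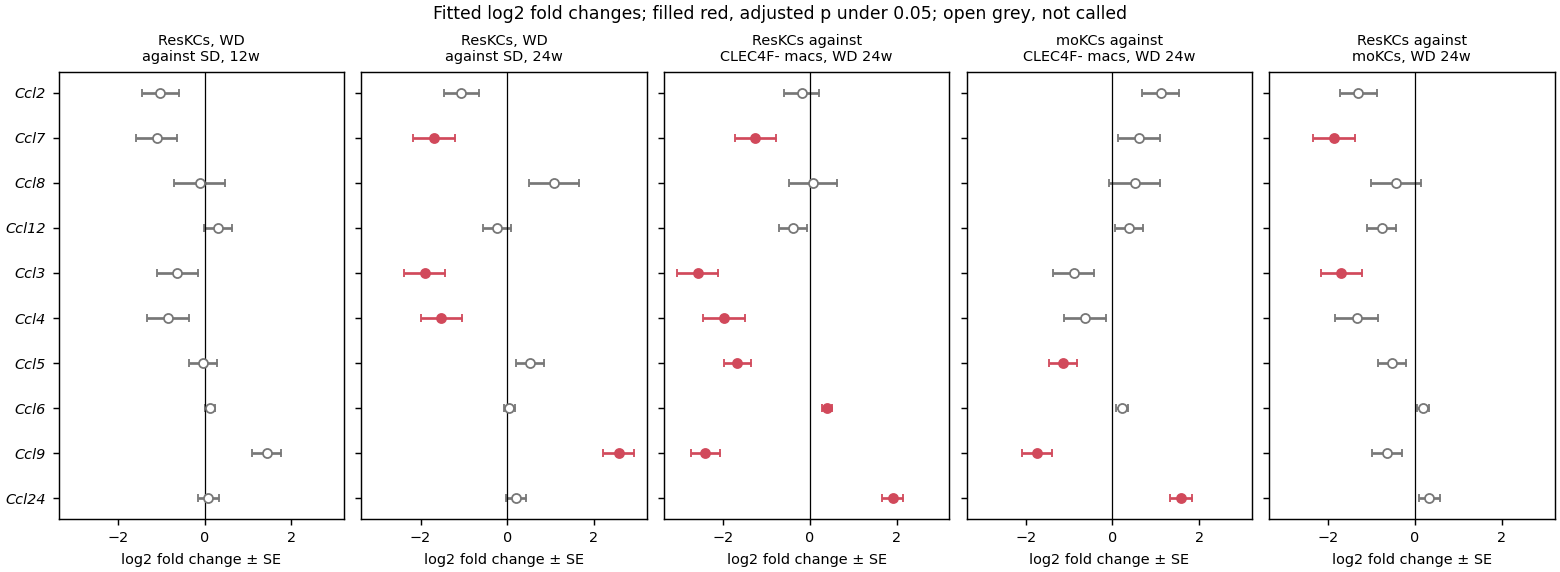
Fitted log2 fold changes (x axis, ± SE) of the 10 members (y axis) in 5 comparisons, filled red where the adjusted p was under 0.05. *Ccl9* rose with the WD at 24 weeks (2.57) and stood below CLEC4F- macs in ResKCs (-2.41), while *Ccl24* was higher in ResKCs than in CLEC4F- macs (1.91).

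*Ccl9* separated both the diets and the populations. In SD ResKCs it lay between 7.44 and 24.5 CPM at 12 weeks (median 15.1) and between 10.9 and 28.5 CPM at 24 weeks (median 16.0). In WD ResKCs at 12 weeks the 5 samples held 24.5, 46.3, 64.5, 43.8 and 38.0 CPM. At 24 weeks on the WD the range was 65.9 to 191 CPM (median 94.6). All 6 WD samples thus lay above all 6 SD samples at 24 weeks, and at 12 weeks 4 of 5 WD samples lay above every SD sample. The rise was 2.57 ± 0.35 on the log2 scale at 24 weeks, or 5.92-fold (edgeR's quasi-likelihood test, adjusted p = 1.5e-05). At 12 weeks it was 1.43 ± 0.34 (edgeR, adjusted p = 0.0971), which DESeq2 called (adjusted p = 0.0253), as did edgeR without SD replicate 7 (1.56, adjusted p = 0.0257). The test of the difference between these rises gave 1.13 ± 0.48 (edgeR, adjusted p = 0.280).

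The populations on the WD extended this order. The moKC samples held 35.6, 232, 107, 218 and 215 CPM of *Ccl9*, and CLEC4F- macs held 286 to 734 CPM (median 538). Every CLEC4F- mac sample lay above every moKC and ResKC sample, including replicate 4, which at 286 CPM was the lowest of its group. The log2 fold change to CLEC4F- macs was -2.41 ± 0.34 for ResKCs (edgeR, adjusted p = 1.03e-06) and -1.75 ± 0.35 for moKCs (edgeR, adjusted p = 0.000495), and without replicate 4 it was -2.54 and -1.89. The moKC call was lost among samples of the second naming scheme (-1.47, edgeR, adjusted p = 0.0854). ResKCs and moKCs overlapped and did not pass the test (-0.65 ± 0.34, edgeR, adjusted p = 0.352). moKC replicate 1, at 35.6 CPM, lay below all 6 WD ResKC samples and was high for *Ccl2*, *Ccl7* and *Ccl3*.

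*Ccl6*, whose gene lies next to *Ccl9* and whose product shares the receptor CCR1 with CCL9, did not follow it. SD ResKCs held 1018 to 1500 CPM at 12 weeks and 1125 to 1623 CPM at 24 weeks, and WD ResKCs held 1056 to 1568 CPM at 12 weeks and 1249 to 1864 CPM at 24 weeks. The diet difference was 0.05 ± 0.12 on the log2 scale at 24 weeks (edgeR, adjusted p = 0.828) and 0.13 ± 0.12 at 12 weeks (edgeR, adjusted p = 0.807). CLEC4F- macs held 857 to 1514 CPM, below ResKCs by a small margin (0.40 ± 0.12, edgeR, adjusted p = 0.00966) that grew to 0.45 without replicate 4 (1272 CPM). This call was lost in a fit of the compared groups alone (0.39, edgeR, adjusted p = 0.0578), with T and NK cell markers as a covariate (0.42, edgeR, adjusted p = 0.0991) and within the second naming scheme (0.17, edgeR, adjusted p = 0.427), where it was over 1.5 times smaller. Per kilobase, *Ccl9* amounted to 0.726% of *Ccl6* on average in SD ResKCs at 24 weeks (0.494% to 1.04% over 6 samples), 4.16% in WD ResKCs at 24 weeks (3.08% to 7.17%) and 30.6% in CLEC4F- macs (13.3% to 46.9%).

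*Ccl24*, the eosinophil chemokine, showed the opposite order between populations. SD ResKCs held 216 to 371 CPM at 12 weeks (median 270.2) and 139 to 305 CPM at 24 weeks (median 266), and WD ResKCs at 24 weeks held 211 to 343 CPM (median 293). The 5 WD ResKC samples at 12 weeks held 289, 135, 384, 339 and 317 CPM, and the 5 moKC samples 303, 169.8, 259.8, 188 and 209 CPM. CLEC4F- macs held 40.5 to 146 CPM (median 68.9). The highest of these, 146 CPM in replicate 4, was still below the lowest KC sample of the WD at 24 weeks, while the other 5 samples did not exceed 77.0 CPM. Against CLEC4F- macs the log2 fold change was 1.91 ± 0.25 in ResKCs (edgeR, adjusted p = 1.81e-07) and 1.58 ± 0.25 in moKCs (edgeR, adjusted p = 2.34e-05), and 2.21 and 1.88 without replicate 4. It passed the test in neither diet comparison (0.20 ± 0.24 at 24 weeks and 0.08 ± 0.24 at 12 weeks, edgeR, adjusted p = 0.654 and 0.951), and ResKCs and moKCs did not pass the test (0.33 ± 0.25, edgeR, adjusted p = 0.560).

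*Ccl3* and *Ccl4*, which encode the inflammatory chemokines MIP-1α and MIP-1β, were lowest in WD ResKCs at 24 weeks. *Ccl3* lay between 15.0 and 67.4 CPM there (median 25.4), against 56.7 to 211 CPM (median 117) in SD ResKCs at 24 weeks, and 5 of 6 samples of each diet lay clear of the other diet for *Ccl3*. *Ccl4* lay between 32.1 and 108 CPM (median 44.2) against 54.0 to 250.3 CPM (median 159), with 5 WD samples below every SD sample. Both fell, with a log2 fold change of -1.91 ± 0.47 for *Ccl3* (edgeR, adjusted p = 0.0103) and -1.52 ± 0.47 for *Ccl4* (edgeR, adjusted p = 0.0403). The *Ccl4* call did not hold when SD replicate 2, 3, 4 or 5 or WD replicate 1, 2, 3, 4 or 6 was left out (edgeR, adjusted p = 0.0611 to 0.0866) or with limma-voom, no filter, or hepatocyte or T and NK cell markers as a covariate (adjusted p = 0.0606, 0.0530, 0.0584 and 0.0579). With the naming scheme as a covariate neither was called (*Ccl3* -1.58, *Ccl4* -1.18; edgeR, adjusted p = 0.0596 and 0.153), while within the first scheme alone both were (-2.51 and -1.83; edgeR, adjusted p = 0.00901 and 0.0493). At 12 weeks the WD samples held 57.4, 109, 72.5, 78.7 and 47.9 CPM of *Ccl3*, inside the SD range of 25.7 to 230.3 CPM (-0.63 ± 0.47, edgeR, adjusted p = 0.741). *Ccl4* at 12 weeks likewise lay inside the SD range of 27.1 to 284 CPM in all 5 WD samples (-0.84 ± 0.48, edgeR, adjusted p = 0.650).

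CLEC4F- macs held the highest mean of both genes, 196 ± 117 CPM of *Ccl3* and 208 ± 116 CPM of *Ccl4* (SD, n = 6). ResKCs on the WD were lower, with log2 fold changes of -2.59 ± 0.48 for *Ccl3* (edgeR, adjusted p = 6.49e-05) and -1.98 ± 0.48 for *Ccl4* (edgeR, adjusted p = 0.00147), and 5 of 6 samples of each population lay clear of the other. Without CLEC4F- mac replicate 4, at 61.7 CPM of *Ccl3* and 97.8 CPM of *Ccl4*, the log2 fold changes were -2.78 and -2.13. Within the first naming scheme the log2 fold changes were -3.58 and -2.54 (edgeR, adjusted p = 4.82e-05 and 0.00194), within the second -1.64 and -1.43 (edgeR, adjusted p = 0.0966 and 0.144), and with T and NK cell markers as a covariate *Ccl4* had -1.67 (edgeR, adjusted p = 0.102). The moKC samples split widely, with 196, 36.9, 44.9, 183 and 64.6 CPM of *Ccl3* and 217, 72.5, 61.8, 239 and 83.6 CPM of *Ccl4*. moKC replicates 1 and 4 were high and the other 3 low for both genes. *Ccl3* was lower in ResKCs than in moKCs (-1.70 ± 0.48, edgeR, adjusted p = 0.0474), a call lost without ResKC replicate 1, 2, 3, 4 or 6 or moKC replicate 1, 4 or 5 (edgeR, adjusted p = 0.0549 to 0.169) and with limma-voom (adjusted p = 0.132). This *Ccl3* call was also lost within the second naming scheme (-1.17, edgeR, adjusted p = 0.521) and in several other fits. *Ccl4* did not pass that test (-1.35 ± 0.49, edgeR, adjusted p = 0.132), and neither gene passed it between moKCs and CLEC4F- macs (*Ccl3* -0.90 ± 0.48, *Ccl4* -0.63 ± 0.49; edgeR, adjusted p = 0.234 and 0.459).

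*Ccl2* and *Ccl7*, ligands of the monocyte receptor CCR2, also stood lowest in WD ResKCs at 24 weeks. *Ccl7* lay between 6.81 and 13.8 CPM there (median 9.10) and between 16.1 and 45.0 CPM (median 30.1) in SD ResKCs at 24 weeks, without overlap. *Ccl2* lay between 28.4 and 51.0 CPM (median 32.8) against 36.7 to 102 CPM (median 75.9), where SD replicate 1 alone reached into the WD range. *Ccl7* fell (log2 fold change -1.69 ± 0.48, edgeR, adjusted p = 0.0240). *Ccl2* had a log2 fold change of -1.06 ± 0.41 (edgeR, adjusted p = 0.0998), and it was called in a fit of the compared groups alone (-1.06, edgeR, adjusted p = 0.0106). The *Ccl7* call was lost without WD replicate 1 or 2 (edgeR, adjusted p = 0.0503 and 0.0516), with limma-voom (adjusted p = 0.0799), with T and NK cell markers as a covariate (edgeR, adjusted p = 0.0631) and with the naming scheme as a covariate (-1.16, edgeR, adjusted p = 0.140), but not within the first scheme (-2.10, edgeR, adjusted p = 0.0239). At 12 weeks *Ccl2* spread from 13.2 to 182 CPM in SD ResKCs, and the WD samples, at 22.1, 46.0, 42.0, 53.0 and 38.0 CPM, lay inside that range (-1.02 ± 0.42, edgeR, adjusted p = 0.493). *Ccl7* at 12 weeks spread from 5.24 to 76.8 CPM on the SD around WD values of 10.9 to 25.3 CPM (-1.11 ± 0.48, edgeR, adjusted p = 0.509).

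On the WD, CLEC4F- macs exceeded ResKCs in *Ccl7*, and their 6 samples (14.3 to 42.6 CPM, median 21.6) all lay above the ResKC samples (-1.26 ± 0.47, edgeR, adjusted p = 0.0394; -1.37 without CLEC4F- mac replicate 4). This call was lost without ResKC replicate 1, 2, 3 or 6 or CLEC4F- mac replicate 1, 3 or 5 (edgeR, adjusted p = 0.0607 to 0.121), within the second naming scheme (-0.58, edgeR, adjusted p = 0.505) and in several other fits. *Ccl2* overlapped between these groups, at 28.8 to 58.1 CPM in CLEC4F- macs (-0.19 ± 0.41, edgeR, adjusted p = 0.770). The moKC samples held 221, 38.0, 50.4, 95.5 and 52.6 CPM of *Ccl2* and 95.7, 13.6, 12.3, 35.8 and 22.1 CPM of *Ccl7*. For both genes moKC replicate 1 held the highest value of all 35 samples. ResKCs were lower than moKCs in *Ccl7* (-1.87 ± 0.49, edgeR, adjusted p = 0.0287) and had a log2 fold change of -1.31 ± 0.42 in *Ccl2* (edgeR, adjusted p = 0.0884). Without moKC replicate 1 the *Ccl7* value was -1.09 (edgeR, adjusted p = 0.201) and the *Ccl2* value -0.67. The *Ccl7* call was also lost without ResKC replicate 1, 2, 3 or 6 or moKC replicate 4 (edgeR, adjusted p = 0.0503 to 0.0767). It was lost as well with limma-voom (-1.51, adjusted p = 0.194) and within the second naming scheme (-0.93, edgeR, adjusted p = 0.537). The same held in a fit of the compared groups alone and with T and NK cell markers as a covariate (edgeR, adjusted p = 0.0608 and 0.0515). Against CLEC4F- macs, moKCs had 1.11 ± 0.42 for *Ccl2* (edgeR, adjusted p = 0.0694; 0.48 without moKC replicate 1, and 1.31 with an adjusted p of 0.0353 without moKC replicate 2).

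*Ccl5*, a chemokine of T cells and macs, was low throughout and highest in CLEC4F- macs. It lay between 12.1 and 19.6 CPM there (median 15.3), above all WD ResKC samples (3.14 to 6.52 CPM, median 5.02). The moKC samples held 6.38, 4.83, 12.9, 7.15 and 4.17 CPM, and only replicate 3 reached the range of CLEC4F- macs. Its log2 fold change to CLEC4F- macs was -1.68 ± 0.31 in ResKCs (edgeR, adjusted p = 6.54e-05) and -1.14 ± 0.32 in moKCs (edgeR, adjusted p = 0.0123), or -1.61 and -1.07 without CLEC4F- mac replicate 4. Summed, the 9 T and NK cell markers reached 6.59 to 26.8 CPM in CLEC4F- macs, against 2.97 to 10.6 CPM in moKCs and 1.49 to 5.12 CPM in WD ResKCs at 24 weeks; of them *Gzma* was at 3 counts or fewer in 2 CLEC4F- mac samples and the other 8 in none. With their level as a covariate, chosen after seeing the data, the *Ccl5* values were -1.16 for ResKCs and -0.85 for moKCs (edgeR, adjusted p = 0.0537 and 0.136). The moKC call was also lost within either naming scheme (-1.49 and -0.94; edgeR, adjusted p = 0.0828 and 0.215). Diet did not move *Ccl5* past the test at 24 weeks (0.53 ± 0.32, edgeR, adjusted p = 0.304), where SD replicate 6 was low at 0.937 CPM, or at 12 weeks (-0.03 ± 0.32, edgeR, adjusted p = 0.988).

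*Ccl8* and *Ccl12* were near the low end, between 0.0810 and 13.0 CPM and between 1.35 and 7.26 CPM over all samples, and neither was called in any of the 7 comparisons. *Ccl8* was spread by single samples. At 13.0 CPM, WD ResKC replicate 4 at 24 weeks stood far above the group median of 2.22 CPM, and the diet value at 24 weeks, 1.08 ± 0.58 (edgeR, adjusted p = 0.245), was 0.33 without it. moKC replicate 3 (12.7 CPM) and CLEC4F- mac replicate 4 (10.1 CPM) were likewise the highest of their groups. *Ccl12* was tighter. Its moKC samples (6.90, 5.19, 7.26, 7.23 and 4.75 CPM) all lay above the WD ResKC samples (3.14 to 4.10 CPM), with a log2 fold change of -0.77 ± 0.33 for ResKCs against moKCs (edgeR, adjusted p = 0.223) that was called in a fit of these groups alone (-0.76, edgeR, adjusted p = 0.0449).

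The members were then set beside an immediate-early score, the mean log2 CPM of *Fos*, *Jun*, *Egr1*, *Atf3*, *Hspa1a* and *Hspa1b*, early response and heat-shock genes that a stimulus or the handling of cells can raise. The score was 8.58 ± 0.96 in SD and 6.98 ± 0.80 in WD ResKCs at 24 weeks (SD, n = 6 each), a difference of -1.61 (exact two-sided permutation test, p = 0.0195; 0.104 adjusted over 6 pairs of groups). It was 8.05 ± 0.73 in CLEC4F- macs, 1.08 above WD ResKCs (exact permutation test, p = 0.0346; adjusted p = 0.104), and the other 4 pairs had p of 0.195 or more. No pair thus passed after adjustment. Gene by gene, 3 of the 6 were called lower with the WD at 24 weeks, beside 3.87% of all genes. They were *Fos* (-2.24), *Egr1* (-2.22) and *Jun* (-1.43, edgeR, adjusted p = 0.00888, 0.0308 and 0.0378). *Atf3* (-2.19) and *Fos* (-1.83) were lower in ResKCs against CLEC4F- macs (edgeR, adjusted p = 0.000702 and 0.00728), beside 16.1% of all genes. Within the first naming scheme the diet difference was -2.18 at 24 weeks (3 WD and 6 SD samples, exact permutation test, p = 0.0476) and -1.31 at 12 weeks (5 WD and 3 SD samples, exact permutation test, p = 0.0357), and the second scheme holds samples of 1 diet only at each time. WD ResKCs and CLEC4F- macs differed in the score by -1.92 in the first scheme and by -0.23 in the second (exact permutation test, p = 0.100, the smallest that 3 against 3 allows, and 0.500).

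Within groups, 4 members followed this score closely. Taking both as deviations from the group means over 35 samples, Pearson's r was 0.87 for *Ccl2*, 0.82 for *Ccl7*, 0.87 for *Ccl3* and 0.86 for *Ccl4*, with Spearman's rho of 0.89, 0.82, 0.86 and 0.83 (permutation within groups, p = 1e-05 each, the smallest that 100000 permutations can give; 2.5e-05 adjusted over 10 members). Leaving out the 2 samples farthest from the median score deviation left r at 0.84, 0.78, 0.83 and 0.81. Within the first naming scheme r was 0.85, 0.73, 0.78 and 0.79 (22 samples), and within the second 0.88, 0.87, 0.92 and 0.93 (13 samples). *Ccl12* was weaker, at r = 0.48 and rho = 0.43 (permutation, p = 0.00652 and 0.0200; adjusted p = 0.0130 and 0.0400), or r = 0.41 without 2 samples, 0.29 and 0.53 within the schemes. For *Ccl9* r was -0.11 and rho -0.02 (permutation, p = 0.592 and 0.922), and for *Ccl24* r was 0.00 and rho 0.13 (permutation, p = 0.998 and 0.487). In single groups of at least 6 samples, r ran from -0.60 to 0.77 for *Ccl9* and from -0.57 to 0.70 for *Ccl24*. For the 4 members above it ran from 0.65 to 0.99. These values of few samples are given as a description. *Ccl5* (0.20), *Ccl8* (0.13) and *Ccl6* (-0.23) did not pass the test either (permutation, p = 0.279, 0.437 and 0.188). *Ccl6* reached -0.62 within the second scheme against 0.08 in the first, given as a description. The 4 members also moved with each other, from r = 0.83 between *Ccl7* and *Ccl3* to 0.95 between *Ccl2* and *Ccl7* (deviations, 35 samples), whereas *Ccl9* and *Ccl6* had r = 0.13.

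**Figure D3:**
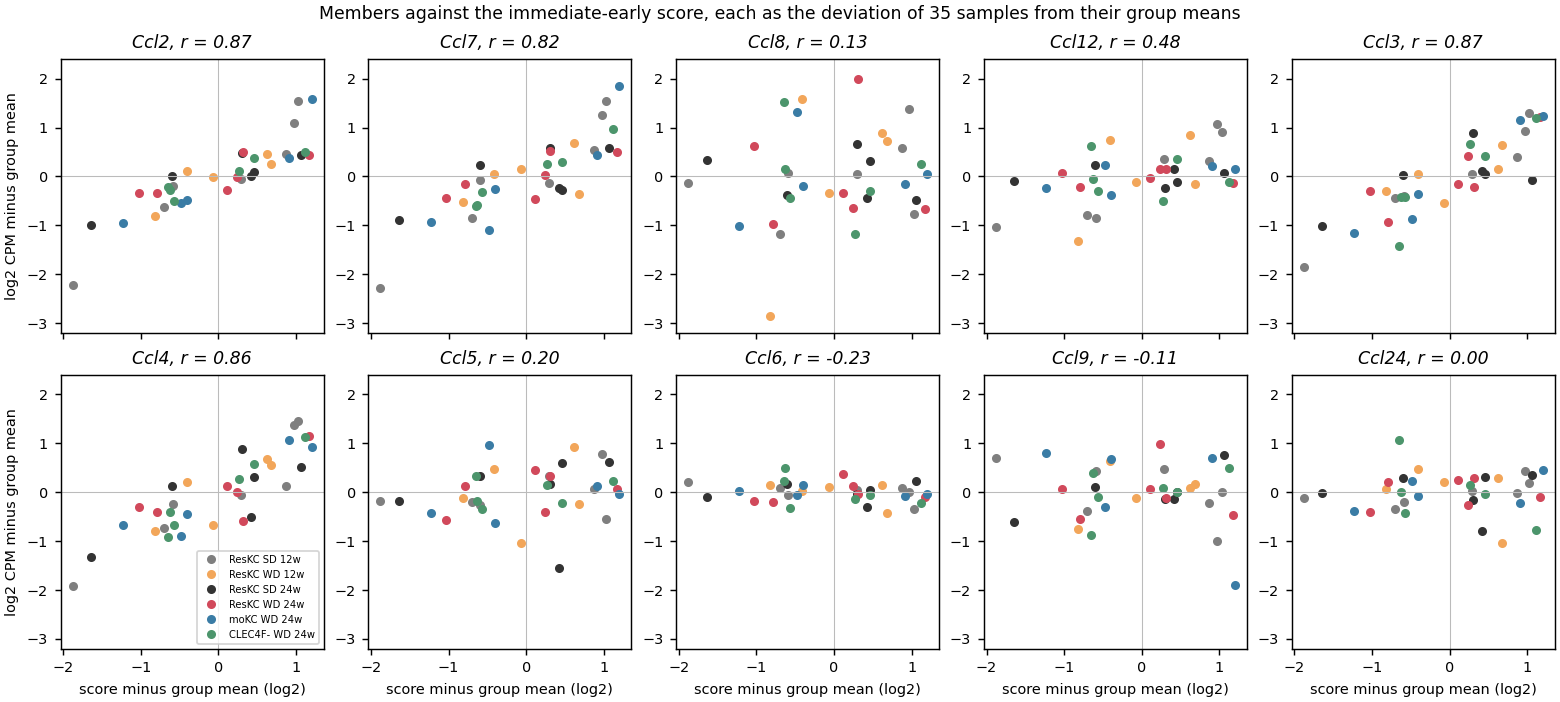
Each panel plots, for 35 samples coloured by group, the deviation of a member's log2 CPM from its group mean (y axis) against the deviation of the immediate-early score (x axis, log2). *Ccl2*, *Ccl7*, *Ccl3* and *Ccl4* line up with the score (r = 0.82 to 0.87), and *Ccl9* (r = -0.11) and *Ccl24* (r = 0.00) do not.

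Single samples show this, with exceptions. SD ResKC replicate 7 at 12 weeks had the lowest score of its group (6.12) and the lowest *Ccl2* (13.2 CPM), *Ccl7* (5.24 CPM), *Ccl3* (25.7 CPM) and *Ccl4* (27.1 CPM) of that group, yet its highest *Ccl9* (24.5 CPM). moKC replicate 1 had the highest score of the moKCs (8.93) with the highest *Ccl2*, *Ccl7* and *Ccl3*, and the lowest *Ccl9*. Its *Ccl4* (217 CPM) was below that of moKC replicate 4 (239 CPM). SD ResKC replicate 1 at 24 weeks had the lowest score of its group (6.94) and its lowest *Ccl2*, *Ccl7*, *Ccl3* and *Ccl4*, and here also its lowest *Ccl9* (10.9 CPM). Replicate 5 of that group had the highest score (9.64), but its *Ccl3* (108 CPM) lay below the group median of 117 CPM. WD ResKC replicate 2 at 12 weeks had the highest score of its group (8.33), but its *Ccl7* (12.1 CPM) lay below the median of 16.0 CPM.

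With the score as a covariate, the fall of *Ccl3*, *Ccl4* and *Ccl7* under the WD at 24 weeks was no longer called. *Ccl3* then had a log2 fold change of -0.70, *Ccl4* of -0.17, *Ccl7* of -0.40 and *Ccl2* of 0.17 (edgeR, adjusted p = 0.138, 0.784, 0.519 and 0.751), while *Ccl9* stayed at 2.49 (edgeR, adjusted p = 0.000488). ResKCs remained lower than CLEC4F- macs in *Ccl3* (-1.64, edgeR, adjusted p = 7.24e-06), *Ccl4* (-0.98, edgeR, adjusted p = 0.00443), *Ccl5* (-1.52, edgeR, adjusted p = 0.000465) and *Ccl9* (-2.46, edgeR, adjusted p = 3.52e-06), and higher in *Ccl24* (1.93, edgeR, adjusted p = 6.22e-07). *Ccl7* lost its call there (-0.30, edgeR, adjusted p = 0.503) and *Ccl2* turned to 0.64 (edgeR, adjusted p = 0.0331). Against moKCs, ResKCs had -0.93 for *Ccl7* and -0.87 for *Ccl3* (edgeR, adjusted p = 0.0942 and 0.0595). moKCs exceeded CLEC4F- macs in *Ccl2* (1.11, edgeR, adjusted p = 0.000379) and were lower in *Ccl3* (-0.77, edgeR, adjusted p = 0.0275). The score itself differs between groups, so that such a fit also takes up differences between groups, and the part of the score in these results beyond the values given was not tested.

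**Figure D4:**
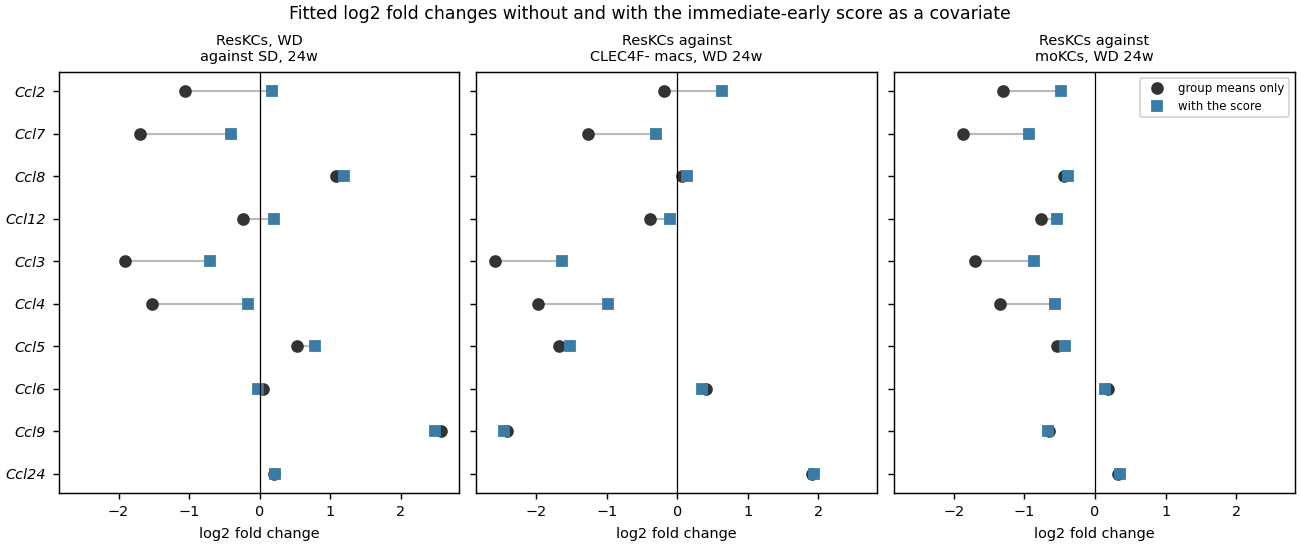
Fitted log2 fold changes (x axis) of the 10 members (y axis) in 3 comparisons with group means only (circles) and with the immediate-early score as a covariate (squares). Squares of *Ccl2*, *Ccl7*, *Ccl3* and *Ccl4* lie closer to 0 or past it (from -1.91 to -0.70 for *Ccl3* with diet at 24 weeks), and those of *Ccl9* stay in place (2.57 and 2.49).

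The genes with a log2 CPM pattern most like a member's were listed over all 35 samples. Group means were left in here, unlike in the correlations with the score. *Ccl2* was nearest to *Nfkbiz* (Pearson's r = 0.92), *Ccl7* (0.92) and *Ier2* (0.89), and *Ccl7* to *Ccl2*, *Btg2* (0.91) and *Jun* (0.91), itself a gene of the score. *Ccl3* was nearest to *Ccrl2* (0.95), *Ccl4* (0.93) and *Rgs1* (0.93), and *Ccl4* to *Ccrl2* (0.96), *Cxcl2* (0.94) and *Ccl3*. *Ccl9* was nearest to *Cd9* (0.98), *Cd63* (0.97) and *Itgax* (0.97), which encode tetraspanins and the integrin CD11c. *Ccl24* was nearest to *Armc8* (0.95), *Fabp7* (0.94) and *Chp2* (0.94), *Ccl5* to *Tspan13* (0.85), *Ciita* (0.84) and *Slamf7* (0.83), and *Ccl6* to *Ltc4s* (0.80), *Ctsb* (0.77) and *Eif4ebp1* (0.75). *Ccl8* (*Cxcl9* 0.74, *Luc7l2* 0.71, *Rpl29* 0.69) and *Ccl12* (*Prr11* 0.65, *Col3a1* 0.62, *Ccl8* 0.61) had no near neighbour. These values are descriptions over samples that share groups and libraries.

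Of 14 CC chemokine receptors and related receptors, several of which bind none of the 10 members, 9 passed the filter. *Ccr1*, the receptor of CCL3, CCL5, CCL6 and CCL9, was 0.952 ± 0.428 CPM in SD and 8.64 ± 7.14 CPM in WD ResKCs at 24 weeks (SD, n = 6 each), a rise of 3.18 ± 0.56 on the log2 scale (edgeR, adjusted p = 0.000505), and it reached 133 ± 30.5 CPM in CLEC4F- macs. It was the 1 receptor called higher in that diet comparison, beside 4.84% of all genes. The 2 called lower, beside 3.87% of all genes, were *Ackr4*, a decoy receptor (-1.99 ± 0.56, edgeR, adjusted p = 0.0219), and *Ccrl2*, a chemerin-binding relative (-1.66 ± 0.53, edgeR, adjusted p = 0.0460). *Ccr2* averaged 715 ± 329.8 CPM in CLEC4F- macs (SD, n = 6), against 28.7 ± 10.6 CPM in moKCs (SD, n = 5) and 6.03 ± 0.736 CPM in WD ResKCs (SD, n = 6). ResKCs were lower than CLEC4F- macs in 6 of the 9 receptors and higher in none, beside 16.1% and 17.0% of all genes. Named by size, these were *Ccr2* (-6.89 ± 0.37, edgeR, adjusted p = 8.91e-16), *Ccr1* (-3.94 ± 0.47, edgeR, adjusted p = 5.51e-08) and *Ccr7* (-3.03 ± 0.79, edgeR, adjusted p = 0.00298). The other 3, *Ccrl2*, *Ccr3* and *Ackr4*, lay between -2.03 and -1.60. They were lower than moKCs in *Ccr3*, *Ccr2* and *Ccr1* (-2.40, -2.25 and -1.81; edgeR, adjusted p = 0.00216, 4.18e-05 and 0.0212). In moKCs against CLEC4F- macs, *Ccr2*, *Ccr7* and *Ccr1* were lower (-4.64, -2.60 and -2.13; edgeR, adjusted p = 5.84e-11, 0.0262 and 0.00110).

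Of 11 further CC chemokines, 3 passed the filter. *Ccl22* and *Ccl17*, CCR4 ligands, were lower in ResKCs against CLEC4F- macs (-3.62 ± 0.79 and -3.11 ± 0.70; edgeR, adjusted p = 0.000452 and 0.000673) and lower in moKCs (-2.66 and -2.32; edgeR, adjusted p = 0.0182 and 0.0198). *Ccl22* averaged 22.6 ± 25.8 CPM, *Ccl17* 2.51 ± 2.96 CPM and the receptor gene *Ccr7* 18.7 ± 32.7 CPM in CLEC4F- macs (SD, n = 6), spreads larger than the means. The 5 dendritic cell markers, summed, lay between 16.9 and 51.2 CPM in those samples (median 28.0). The medians were 17.1 CPM in moKCs and 15.5 CPM in WD ResKCs at 24 weeks. Among them *Flt3* lay between 1.05 and 15.4 CPM in CLEC4F- macs and at most at 1.35 CPM in moKCs and 0.797 CPM in those ResKCs. The ranges of *Xcr1*, *Clec9a*, *Zbtb46* and *Siglech* in CLEC4F- macs overlapped those in moKCs and in those ResKCs. *Zbtb46* reached 19.0 CPM in CLEC4F- macs and 22.8 CPM in moKCs. The part of the dendritic cell markers in these results was not tested. Of 12 inducible cytokine and NF-kB feedback genes, 4 were lower and 0 higher with the WD at 24 weeks, beside 3.87% and 4.84% of all genes. Among them were *Il6* (-2.45 ± 0.74), *Il1b* (-1.92 ± 0.53) and *Il10* (-1.75 ± 0.40, edgeR, adjusted p = 0.0337, 0.0215 and 0.00549). The fourth was *Nfkbia* (-1.07 ± 0.31, edgeR, adjusted p = 0.0262), an inhibitor of NF-kB, and the list median was -1.56 against 0.00 over all genes. ResKCs were lower than CLEC4F- macs in 3 of these genes, beside 16.1% of all genes. They were *Ptgs2* (-4.16), *Cxcl2* (-1.78) and *Il1b* (-1.41, edgeR, adjusted p = 0.000552, 0.0432 and 0.0374). The moKCs were higher than CLEC4F- macs in 1, *Il1a* (0.95, edgeR, adjusted p = 0.0268), beside 9.34% of all genes. The 10 members had a median of -0.09 with the WD at 24 weeks, where *Ccl9* rose and *Ccl3*, *Ccl4* and *Ccl7* fell.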

How the data were processed

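RNA from the 35 sorted samples was made into TruSeq libraries and sequenced as single reads on a NextSeq500. According to the submitters' processing notes, the tools were FastQC 0.11.9, HISAT2 2.2.0, SAMtools 1.10 and featureCounts 2.0.0 with the mm10 build; which annotation was used, and how strand and reads with several matches were treated, is not given in the sources used here. The authors deposited whole-number read counts per gene for each sample, with no normalization.

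Counts were fitted in R 4.3.3 with edgeR 4.0.16 (quasi-likelihood F test, TMM factors, 6 group means over all 35 samples). Genes above 1 CPM in at least 5 samples (13421) were tested, and a Benjamini-Hochberg adjusted p under 0.05 was called with no limit on the fold change. All 10 members passed this filter. Levels are CPM on TMM library sizes, and log2 CPM used a prior count of 2. The SE of a log2 fold change is its absolute value divided by the square root of the F statistic. The study's methods name limma; limma-voom (limma 3.58.1) was run as an alternative, as were a fold limit on the edgeR calls, DESeq2 1.42.0, scaling by library size alone, no filter, fits of the compared groups alone, covariates (immediate-early score, naming scheme, hepatocyte markers), a block for replicate number, and leaving out each sample. The second naming scheme alone and the T and NK cell covariate were added after seeing the data. The scripts were tested on simulated data. Score differences were tested by exact permutation and member correlations by permutation within groups (scipy 1.17.1). Figures were drawn with matplotlib 3.10.9. No pair of samples within a group held the same counts beyond sampling noise.

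The text names all 10 members, for each further list and the score genes the 3 called genes with the largest fold change per comparison, and for each member the 3 genes of most similar log2 CPM pattern. Members and lists were chosen with earlier results of these data known, so no count over them is independent support. One gene of the receptor list is not reported here.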

Additional observations from a re-analysis of the deposited data

Results flagged for a closer look

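In 4 of 66 groups of values, 1 sample lay far from the others of its group on the log2 CPM scale by Dixon's test, where chance gives about 1 in 20. For *Ccl2*, replicate 1 of the SD ResKCs at 24 weeks was low at 5.20, against 6.21 to 6.67 in the other samples. For *Ccl5*, replicate 6 of the same group was low at 0.12, against 1.49 to 2.29. In WD ResKCs at 12 weeks, replicate 2 was low for *Ccl6* at 10.05, against 10.48 to 10.62, and for *Ccl24* at 7.09, against 8.18 to 8.59.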

How the results depend on the processing

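With the immediate-early score as a covariate, members called went from 4 to 1 for diet at 24 weeks, from 3 to 5 for moKCs against CLEC4F- macs and from 2 to 0 for ResKCs against moKCs, and *Ccl2* turned from -0.19 to 0.64 between ResKCs and CLEC4F- macs. The naming scheme as a covariate left 1 member called for diet at 24 weeks. limma-voom called 2 there and 0 between ResKCs and moKCs, where omitting the filter gave 1 and a fit of the compared groups alone 1. DESeq2 called 1 member at 12 weeks in place of 0. Over all genes, calls for diet at 24 weeks were 897 with the naming scheme and 953 with limma-voom, in place of 1169. Between ResKCs and moKCs they were 387 with the score, 417 with limma-voom and 310 with the compared groups alone, in place of 401. Without the filter they were 283 there. For moKCs against CLEC4F- macs, the score gave 2164 in place of 2204. Of the alternatives chosen after seeing the data, T and NK cell markers as a covariate left 2 members for diet at 24 weeks, 3 in place of 7 for ResKCs against CLEC4F- macs and 0 for ResKCs against moKCs. With it, calls over all genes fell from 1169 to 618, from 4433 to 2068 and from 401 to 201. The marker sum also differed between groups (mean 14.9 CPM in CLEC4F- macs, 6.67 CPM in moKCs and 3.52 CPM in WD ResKCs at 24 weeks). The second naming scheme alone left 3, 1 and 0 in the 3 population comparisons. Calls over all genes were 1669, 325 and 62 there, in place of 4433, 2204 and 401. Leaving out single samples gave 2 to 4 members for diet at 24 weeks, 0 to 1 at 12 weeks and 0 to 2 for ResKCs against moKCs, and a score difference between ResKCs and CLEC4F- macs of -1.31 to -0.85. The cause of these changes was not tested.

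By the rule used, replicate numbers were not taken as pairs in the main fit. The mean correlation of same-numbered deviations was -0.112 to 0.117 over the comparisons, those of diet and time included. The mean was highest for ResKCs against CLEC4F- macs (0.117, single numbers 0.024 to 0.263). Here a ResKC sample was nearest to the CLEC4F- mac sample of its own number in 5 of 6 numbers. Whether these samples shared livers is not given and was not tested, and the main fit treats them as unpaired. A block for the number left 7 members called between ResKCs and CLEC4F- macs, as without it. Number 3 joins a moKC sample of the second naming scheme to ResKC and CLEC4F- mac samples of the first. With the number as a block, 0 members were called between ResKCs and moKCs, *Ccl9* was not called between moKCs and CLEC4F- macs (-1.83, edgeR, adjusted p = 0.0956; 2 members in place of 3), and *Ccl2* was called for diet at 24 weeks (-1.03, edgeR, adjusted p = 0.00934; 5 members in place of 4). The block moved all calls from 2204 to 675 for moKCs against CLEC4F- macs, from 401 to 121 for ResKCs against moKCs, from 5 to 3 at 12 weeks and from 38 to 0 for the difference of diet effects.

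Calls over all genes, edgeR against DESeq2, were 5 and 44 at 12 weeks, 38 and 187 for the difference of diet effects, and 0 and 16 over time. The score as a covariate lowered the diet calls at 24 weeks from 1169 to 487, the first naming scheme alone to 501 and the T and NK cell markers to 618. Scaling by library size alone moved the median of all genes by up to -0.14 on the log2 scale (ResKCs against CLEC4F- macs), against -0.02 with TMM. Low counts limit *Ccl8*, which had 1 count in its lowest sample.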
